A study of Mus musculus with 18 samples.

Results

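The genes described here are 10 secreted products of Paneth cells, taken as the rows of the count tables with the symbols *Defa17*, *Defa21*, *Defa22*, *Defa24*, *Defa26*, *Lyz1*, *Itln1*, *Mptx2*, *Ang4* and *Mmp7*. They are 10 of the 43346 genes in the table of raw counts, each symbol matched 1 row, and all 10 are also among the 24814 rows of the normalised table. RNA was sequenced from EPCAM-positive cells of untreated *Lgr5-eGFP-IRES-CreERT2* mice, in which GFP is made from the *Lgr5* locus. Cells from small intestinal (SI) and large intestinal (LI) crypts were sorted for high, medium or low GFP, which stand for centre, border and row >3 Lgr5+ cells. This gave 6 groups with 3 replicates each and 18 libraries in all. All groups carry the same allele. The strain is labelled C57BL/6, while the study's methods give its mice a mixed or C57/B6 background. The age lies between 8 and 20 weeks by the labels and up to 50 weeks by the methods of the study. The sort used EPCAM and GFP but no Paneth cell marker, and neither the SI segment nor the mouse behind each replicate number is given in the sources used here. The study's methods call the 3 replicates of each group biological. P-values measure the spread between these libraries, part of which may be technical.

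Paneth cells sit between the Lgr5+ stem cells at the base of SI crypts and release granules of antimicrobial proteins into the crypt lumen. The alpha-defensins, which are called cryptdins in the mouse, are made as proforms and are cut to their active peptides by matrilysin, the product of *Mmp7*. *Lyz1* encodes the Paneth cell lysozyme, an enzyme that cuts the bacterial cell wall. The other products are intelectin-1 (*Itln1*), a lectin that binds microbial sugars, mucosal pentraxin 2 (*Mptx2*) and angiogenin 4 (*Ang4*), a ribonuclease with antimicrobial activity. LI crypts have no Paneth cells under normal conditions, so these genes address how far the sorted Lgr5+ fractions of both sites carry RNA for products of a cell type found at 1 of them. Which cells made the LI counts of these genes, those of *Ang4* included, was not tested.

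By GENCODE M21 on GRCm38 (mm10), *Defa17* (chr8:21655780-21656735), *Defa21* (chr8:21025545-21026516), *Defa22* (chr8:21162277-21163249), *Defa24* (chr8:21734494-21735471) and *Defa26* (chr8:21618183-21618972) lie on the plus strand of the alpha-defensin cluster of chromosome 8. *Mmp7* (chr9:7692090-7699585) is also on the plus strand, and *Lyz1* (chr10:117287797-117292868), *Itln1* (chr1:171518122-171535294), *Mptx2* (chr1:173274382-173277777) and *Ang4* (chr14:51763878-51773590) are on the minus strand. All are protein-coding genes, and the counts are taken per gene.

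The 5 alpha-defensins are close copies of each other, and their sequences show where reads can be told apart. Their coding sequences, without the stop codon, are each 279 bases long, and their last 35 codons, which encode most or all of the mature peptide, are shown here. They are given from the same annotation, 5′ to 3′ on the plus strand, at chr8:21656534-21656638 for *Defa17*, chr8:21026316-21026420 for *Defa21*, chr8:21163048-21163152 for *Defa22*, chr8:21735270-21735374 for *Defa24* and chr8:21618775-21618879 for *Defa26*. Capitals mark the bases that were not paired with an identical base of *Defa24*, the most abundant of the 5, in an alignment. Gaps were allowed in it, so for *Defa21* and *Defa22* letters at the same place need not be paired.
Defa24: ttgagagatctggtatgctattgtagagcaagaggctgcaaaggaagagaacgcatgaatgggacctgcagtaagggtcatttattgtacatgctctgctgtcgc
Defa17: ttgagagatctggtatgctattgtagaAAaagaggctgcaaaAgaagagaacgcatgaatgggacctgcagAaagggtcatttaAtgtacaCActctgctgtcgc
Defa26: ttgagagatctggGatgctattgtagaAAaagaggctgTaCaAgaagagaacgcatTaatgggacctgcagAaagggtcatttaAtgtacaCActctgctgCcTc
Defa22: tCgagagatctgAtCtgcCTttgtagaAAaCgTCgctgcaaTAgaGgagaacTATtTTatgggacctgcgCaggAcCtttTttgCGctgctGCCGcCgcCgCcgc
Defa21: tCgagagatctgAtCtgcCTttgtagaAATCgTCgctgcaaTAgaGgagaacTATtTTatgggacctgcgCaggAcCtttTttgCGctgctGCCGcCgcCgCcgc

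In these alignments 7 bases of *Defa17*, 13 of *Defa26*, 31 of *Defa22* and 32 of *Defa21* were not paired with an identical base of *Defa24*. Each stretch holds 35 codons, of which 6 are TGT or TGC in every gene, the codons of the cysteines that form the disulphide bonds of a defensin. The first 4 of these codons stand at the same places in all 5 genes (6, 8, 13 and 23), and the last 2 stand at 33 and 34 in *Defa17*, *Defa24* and *Defa26* but at 30 and 31 in *Defa21* and *Defa22*. Over the whole coding sequence *Defa21* and *Defa22* were identical at 277 of 279 aligned bases (99.3%), *Defa17* and *Defa24* at 95.7%, and the least alike pair, *Defa21* and *Defa24*, at 80.6%. Of all windows of 100 bases, the read length, 90.6% of the *Defa17* transcript are also found in *Defa3* or *Defa30*, and 40.4% of *Defa21* and 40.3% of *Defa22* are found in each other. The share was 3.31% for *Mptx2* (with *Mptx1*), 2.06% for *Lyz1* (with *Lyz2*) and 1.10% for *Defa26* (with *Gm15292*). No window of *Defa24*, *Itln1*, *Ang4* or *Mmp7* was shared with another gene. How reads with several possible origins were treated is not stated in the study's methods or labels, so the counts of *Defa17*, *Defa21* and *Defa22* are uncertain, and *Defa24* is the defensin with the best defined count.

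The 250 bases before the start site were searched for CTTTGAT, the core of the sites bound by TCF factors in Wnt signalling, and for TATAAA, the TATA box, on both strands. Sequences for 7 of the 10 genes (*Defa21*, *Defa22*, *Lyz1*, *Itln1*, *Mptx2*, *Ang4* and *Mmp7*) came from RefSeq on GRCm38.p6. The upstream bases of *Defa21* (chr8:21025295-21025544) and *Defa22* (chr8:21162027-21162276), both on the plus strand, are identical at all 250 positions, so 1 copy is shown beside that of *Mmp7* (chr9:7691840-7692089, plus strand), the member whose counts varied least like those of the others. Capitals mark the matches, and ATCAAAG is CTTTGAT read on the opposite strand.
Defa21 and Defa22: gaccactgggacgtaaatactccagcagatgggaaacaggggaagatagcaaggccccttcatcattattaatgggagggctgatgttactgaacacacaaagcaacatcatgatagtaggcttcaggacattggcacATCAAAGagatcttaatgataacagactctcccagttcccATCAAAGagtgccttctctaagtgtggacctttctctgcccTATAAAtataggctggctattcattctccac
Mmp7: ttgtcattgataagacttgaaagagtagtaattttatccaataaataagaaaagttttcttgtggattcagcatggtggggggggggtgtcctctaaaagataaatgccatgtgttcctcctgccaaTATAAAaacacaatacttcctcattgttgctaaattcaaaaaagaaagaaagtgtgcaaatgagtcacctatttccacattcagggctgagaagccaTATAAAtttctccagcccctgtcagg

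*Defa21* and *Defa22* have CTTTGAT on the opposite strand at -112 and -72 from the start site and TATAAA at -31. *Mmp7* has TATAAA at -123 and -26, and an annotated second start of the gene has CTTTGAT on the opposite strand at -247. The windows of *Lyz1*, *Itln1*, *Mptx2* and *Ang4* hold neither run of letters. Of 32851 promoters of the same length, 3.21% hold CTTTGAT and 12.4% hold TATAAA on either strand, so these matches are a description of the sequence only.

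Libraries held between 8312093 and 31940965 counts. Of the values that mark the sort, *Lgr5* had 2434 to 5252 normalised counts in SI centre, 157 to 2028 in SI border and 28.1 to 279.6 in SI row >3 libraries, and 2176 to 2575, 1184 to 1676 and 134 to 466 in the LI. The 3 SI libraries numbered 3 stand apart from the other SI libraries. For genes with at least 20 CPM in each LI library of a level and a mean at least 20 times that of SI replicate 1, SI replicate 3 had a median of 56.6% of the LI mean in centre, 72.5% in border and 67.4% in row >3, against 1.73%, 1.73% and 1.30% in SI replicate 2. The summed level of 12 LI epithelial genes was 23419 to 61986 normalised counts in the LI libraries. Among SI libraries it was 8123 to 14048 in those numbered 1 and 2 and 19758 to 93092 in those numbered 3. The folds between the sites and the counts of called members are therefore given with and without these libraries. In both sites the libraries numbered 2 had at least 542 counts of each of the Y-linked genes *Ddx3y* and *Eif2s3y*, against at most 1 in the others, so these libraries differ from the rest also by sex.

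All 10 members had counts in every SI library, the fewest being 12 for *Mptx2* in SI row >3 replicate 3. In the LI, 9 of them had at most 33.9 normalised counts in any library, while *Ang4* reached 235 there. Together they took between 0.0192% and 1.01% of the counts of an SI library and at most 0.00120% of those of an LI library. The highest share was in SI centre replicate 2, with 206582 of 20453305 counts, and the lowest SI share was in SI row >3 replicate 3, with 3027 of 15757652 counts. LI centre replicate 1 had 0 counts over all 10 members among its 15689209. In bulk RNA, fewer cells of a type and less RNA per cell cannot be told apart. The dot plot of normalised counts shows each member in each library.

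**Figure D1:**
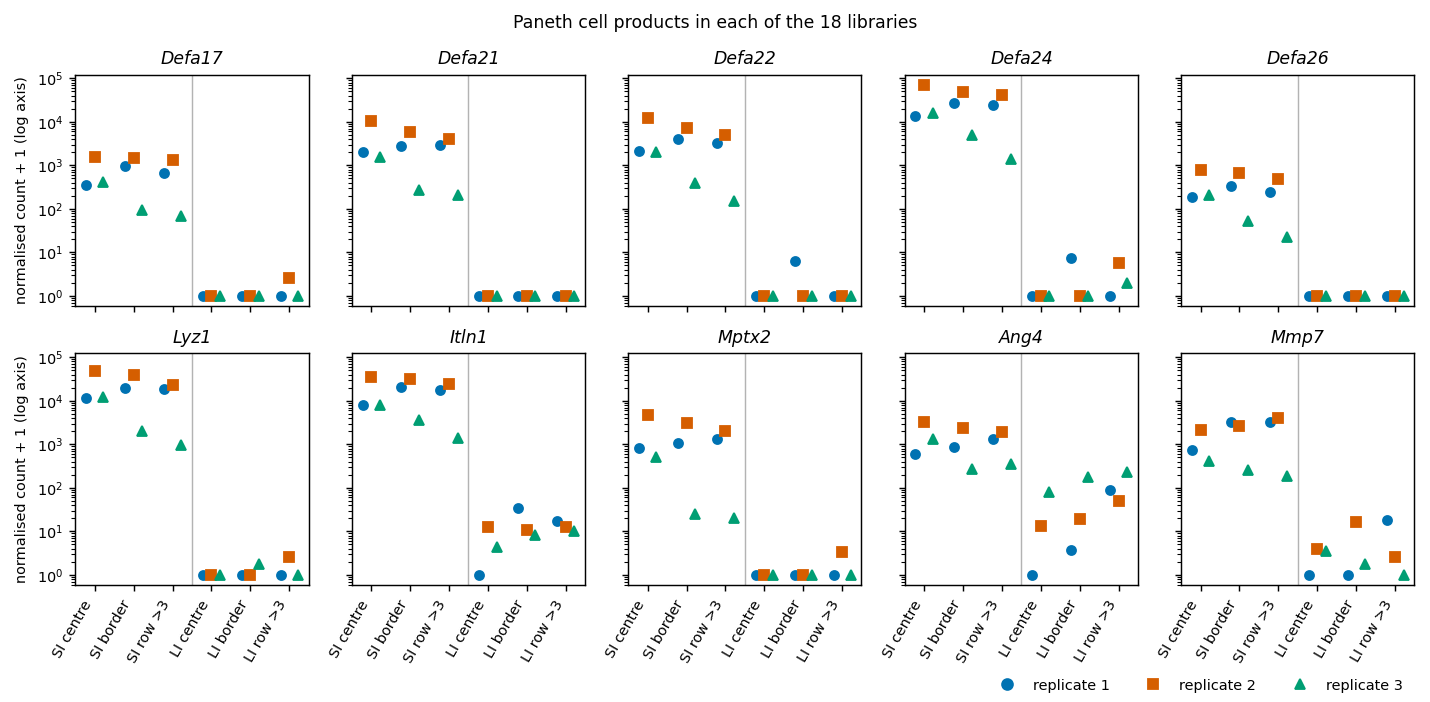
Normalised counts plus 1 (log axis) of the 10 members in each of the 18 libraries, by site and Lgr5+ level, 1 point per library and 1 symbol per replicate number. Every SI point lies above every LI point of the same level, and the SI libraries numbered 3 drop from centre to row >3, as in *Lyz1* from 12199.9 to 938.

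Per kilobase of exon the members kept a similar order in the SI libraries. *Defa24* had the highest level per length in all 9 SI libraries, with group means of 79459 normalised counts per kb in centre cells, 64154 in border cells and 52639 in row >3 cells. *Lyz1* (19199.8, 15968 and 11165 per kb) and *Itln1* (15080.4, 16262 and 12698 per kb) held ranks 2 and 3 in every SI library and changed places between groups. *Defa22* (13246, 9115 and 6617 per kb) and *Defa21* (11238, 7129 and 5713 per kb) came next, with ranks from 4 to 6. The other members had group means of 674 to 2567 per kb and ranks from 5 to 10. *Mmp7* had the lowest group mean of all members in centre cells (1040 per kb) and the highest of these lower-ranked members in row >3 cells (2309 per kb), an ordering of means that was not tested.

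The first comparison asks how the sites differ at the same Lgr5+ level. *Defa24* had 13900.2, 69879 and 16101 normalised counts in SI centre replicates 1, 2 and 3, 27732, 48005 and 4904 in SI border and 24064, 40674 and 1429.9 in SI row >3 libraries. In the LI it had 0 in all centre libraries, 6.42, 0 and 0 in border and 0, 4.56 and 0.943 in row >3 libraries. Every SI library lay far above every LI library. Against 3 counts over the LI centre group, the floor used where a group was at 0, *Defa24* was at least 37336-fold higher in SI centre cells (edgeR adjusted p = 0.000263). In border cells the ratio of summed counts, each sum divided by that of the size factors, was 11512 (95% counting interval 5587 to 28634.5, edgeR adjusted p = 0.000289), and in row >3 cells it was 12910 (6265 to 32111, edgeR adjusted p = 0.000125). These intervals cover counting error only, not the spread between replicates. Without the SI libraries numbered 3 the folds were at least 46047 in centre and 18866 and 15774 in border and row >3 cells. All 7 LI border counts of *Defa24* came from replicate 1 and 6 of the 7 LI row >3 counts from replicate 2. In border cells *Defa24* was at least 17808-fold higher without LI replicate 1, and its ratio was 6732 without LI replicate 3 and 5518 without SI replicate 2. In row >3 cells the ratio was 56118 (95% counting interval 10072 to 2216580) without LI replicate 2, from 1 LI count, and 8524 without SI replicate 2. Its bound in centre cells was 17136 without SI replicate 2, 22466 without LI replicate 2 and 24084 without LI replicate 3, and such a bound falls with the LI depth left.

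*Lyz1* had 11324, 49224 and 12199.9 normalised counts in SI centre, 19706, 38744 and 2052 in border and 18287, 23078 and 938 in row >3 libraries. In the LI it was at 0 in 7 of 9 libraries, with 0.744 in border replicate 3 and 1.52 in row >3 replicate 2. It was at least 27252-fold higher in SI than in LI centre cells (edgeR adjusted p = 0.0152). The ratio was 60598 in border cells (95% counting interval 10876 to 2393560, edgeR adjusted p = 0.0193), from 1 LI count, and 29174 in row >3 cells (8076 to 240901, edgeR adjusted p = 0.0106), from 2 LI counts. Its bound in centre cells was 33373 without the SI libraries numbered 3, and its ratios in border and row >3 cells were then 103519 and 35640.5. With single libraries left out, the bound in centre cells was 13471 without SI replicate 2, 16398 without LI replicate 2 and 17579 without LI replicate 3. In border cells *Lyz1* was at least 11812-fold higher without LI replicate 3, which held the 1 LI count, and its ratio was 24243 (4350 to 957645) without SI replicate 2 and 40174 (7210 to 1586850) without LI replicate 1. In row >3 cells it was at least 12078-fold higher without LI replicate 2, which held both LI counts. *Lyz2*, the lysozyme of macrophages and the closest copy of *Lyz1*, had at most 7.44 normalised counts in any library.

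*Itln1* had 7889, 35549 and 8182 normalised counts in SI centre, 20549, 31568 and 3547 in border and 17969, 24136 and 1359.7 in row >3 libraries. In the LI it had 0, 11.7 and 3.27 in centre, 33.9, 9.98 and 7.44 in border and 16.4, 11.4 and 9.43 in row >3 libraries. It had counts in 8 of 9 LI libraries, yet each SI library lay above all of them. The ratio of SI to LI was 2899.8 (95% counting interval 1877 to 4748) in centre cells, 999 (767 to 1326) in border cells and 1384 (1028 to 1913) in row >3 cells, and 3589, 1627 and 1684 without the SI libraries numbered 3. On the log2 scale, SI over LI was fitted at 11.47 ± 1.56 (SE, edgeR adjusted p = 0.00203) in centre cells, 10.001 ± 1.417 (adjusted p = 0.00327) in border cells and 10.11 ± 1.44 (adjusted p = 0.00131) in row >3 cells. With 1 library left out *Itln1* was fitted in centre cells at 13.01 without LI replicate 2 and 10.37 without SI replicate 2, and in border cells at 10.98 without LI replicate 1 and 9.36 without SI replicate 2.

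*Mmp7* had 748, 2172 and 413 normalised counts in SI centre, 3270.2, 2674 and 249 in border and 3258, 3956 and 184 in row >3 libraries. The LI values were 0, 2.92 and 2.45 in centre, 0, 14.97 and 0.744 in border and 17.3, 1.52 and 0 in row >3 libraries. The groups did not overlap, and SI exceeded LI by a ratio of 540.4 (95% counting interval 262 to 1345), 427 (250 to 803) and 486 (318 to 785) in centre, border and row >3 cells, and by 696, 718 and 593 without the SI libraries numbered 3. On the log2 scale, SI over LI was fitted at 8.96 ± 1.57 (SE, edgeR adjusted p = 0.00542) in centre cells, 8.83 ± 1.46 (adjusted p = 0.00359) in border cells and 8.58 ± 1.38 (adjusted p = 0.00118) in row >3 cells. The fitted value was 8.03 in centre cells without SI replicate 2, and in border cells it was 8.21 without LI replicate 1, 11.85 without LI replicate 2 and 8.21 without LI replicate 3, where the call was lost (edgeR adjusted p = 0.05002, with 9.71e-09 to 0.0709 over its alternatives). In row >3 cells it was 11.26 without LI replicate 1. *Mmp7* overlaps *AV064505* on the opposite strand, which had 34 counts over all libraries.

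*Defa22* had 2097, 12526 and 2027 normalised counts in SI centre, 4035, 7038 and 385 in border and 3225, 4942 and 151 in row >3 libraries, and in the LI it was at 0 except for 5.50 in border replicate 1. It was at least 6216-fold higher in SI than in LI cells of the centre (edgeR adjusted p = 0.0147) and at least 3806-fold higher in row >3 cells (edgeR adjusted p = 0.0121), and the ratio in border cells was 1886 (866 to 5141, edgeR adjusted p = 0.0232). *Defa21*, which shares its upstream bases and much of its transcript, had 2036, 10528 and 1528 in SI centre, 2796, 5875 and 269 in border and 2917, 4038 and 209 in row >3 libraries. *Defa22* had bounds of 8013 in centre and 4659 in row >3 cells and a ratio of 3221 in border cells without the SI libraries numbered 3. All 6 LI counts of *Defa22* came from border replicate 1, without which it was at least 2501-fold higher in SI border cells, and the ratio there was 1103 without LI replicate 3 and 814 without SI replicate 2. Its bound was 2371 in centre cells without SI replicate 2, 3740 without LI replicate 2 and 4010 without LI replicate 3, and 2364 in row >3 cells without LI replicate 2. *Defa21* was at 0 in all 9 LI libraries, hence at least 5275-fold, 3002-fold and 3271-fold higher in SI centre, border and row >3 cells, yet it missed the threshold (edgeR adjusted p = 0.107, 0.135 and 0.101). Its bounds were 6902, 5159 and 3982 without the SI libraries numbered 3, and the lowest with 1 library left out were 2067 and 1130 in centre and border cells without SI replicate 2 and 2031 in row >3 cells without LI replicate 2. The ratio of *Defa21* to *Defa22* lay between 0.693 and 0.971 in 8 SI libraries and was 1.38 in row >3 replicate 3, where both were low.

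*Defa17* had 361, 1546 and 408 normalised counts in SI centre, 978, 1441 and 92.6 in border and 674, 1294 and 67.1 in row >3 libraries, and in the LI only 1.52 in row >3 replicate 2. *Defa26* had 183, 787 and 205, then 342, 656 and 52.6, and then 244, 487 and 21.9 in the same SI groups, and was at 0 in all LI libraries. *Mptx2* had 817, 4797 and 502 in SI centre, 1069.6, 3143 and 24.2 in border and 1297, 1983 and 18.7 in row >3 libraries, and in the LI only 2.28 in row >3 replicate 2. For these 3 genes every SI library again lay above every LI library. None passed the threshold, with edgeR adjusted p of 0.0644, 0.0723 and 0.0508 for *Defa17*, 0.145, 0.178 and 0.149 for *Defa26* and 0.0862, 0.112 and 0.0899 for *Mptx2* in centre, border and row >3 cells. The folds were at least 868 and 811 for *Defa17*, at least 440.4, 352 and 339 for *Defa26* and at least 2287 and 1458 for *Mptx2*, in the groups where the LI was at 0. In row >3 cells the ratio was 1376 (95% counting interval 381 to 11369) for *Defa17*, from 2 LI counts, and 1519.9 (520 to 7373) for *Mptx2*, from 3. Without the SI libraries numbered 3 the values in centre, border and row >3 cells were 1052, 1377 and 1672 for *Defa17*, 535, 587 and 413 for *Defa26* and 3077, 2597 and 1872 for *Mptx2*, bounds where the LI was at 0 and ratios elsewhere. With 1 library left out the lowest of these values were 440.1, 394 and 570 for *Defa17*, 222, 153 and 204 for *Defa26* and 770, 374 and 944 for *Mptx2*. They came without SI replicate 2, except in row >3 cells for *Defa17* and *Mptx2*, where they came without LI replicate 2.

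*Ang4* was the member with the most RNA in the LI, and the cells that made it there were not tested. It had 600.4, 3233 and 1314 normalised counts in SI centre, 878, 2400.4 and 264 in border and 1293, 1876 and 345 in row >3 libraries. In the LI it had 0, 12.4 and 80.2 in centre, 2.75, 18.7 and 173 in border and 89.3, 48.6 and 235 in row >3 libraries. LI replicate 3 was the highest at each level, and the lowest SI value of each level still lay above it, by the least in border (264 against 173) and row >3 cells (345 against 235). The ratio of SI to LI was 49.99 (95% counting interval 41.6 to 60.7) in centre cells, 14.9 (13.1 to 16.997) in border cells and 11.3 (10.2 to 12.5) in row >3 cells, and 54.9, 24.0 and 13.2 without the SI libraries numbered 3. LI replicate 3 held 98 of the 115 LI counts in centre, 233 of 251 in border and 249 of 411 in row >3 libraries. The log2 fold changes of 5.653 ± 1.437, 3.998 ± 1.308 and 3.195 ± 1.240 (SE) missed the threshold in edgeR (adjusted p = 0.0687, 0.174 and 0.218). Without LI replicate 3 they were 7.78, 6.85 and 4.07, and without SI replicate 2 those in centre and border cells were 4.82 and 2.90. DESeq2 called the first and second (adjusted p = 0.00157 and 0.0409) but not the last (0.114), and over all alternatives the adjusted p ran from 0.00157 to 0.233 in centre cells, 0.0409 to 0.416 in border cells and 0.0647 to 0.504 in row >3 cells.

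By the fit over all genes, *Defa22*, *Defa24*, *Lyz1*, *Itln1* and *Mmp7* were called higher in the SI at each of the 3 levels, and no member was called lower. All 10 members were among the 26717 genes that passed the filter on a mean count above 0. The shares of all genes given below are not restricted to genes as abundant as the members. Of all genes tested, 1.19% were called higher in SI than LI in centre cells, 1.15% in border cells and 2.76% in row >3 cells, and 0.805%, 0.606% and 1.32% were called lower. With all 10 members non-overlapping at each level, the share of all genes in which every SI library lay above every LI library was 8.49%, 6.45% and 9.03%. The median fold of the 10 members, with genes at 0 in the LI put at their bound, was 2593 in centre cells, 1228 in border cells and 1452 in row >3 cells, while the median log2 fold change of all genes tested was 0 in each. All 10 had an unadjusted p under 0.05 at each level, beside 6.89%, 7.17% and 8.34% of all genes that were higher in the SI at that p. DESeq2 called 10, 10 and 9 of them, beside 4.40%, 4.62% and 7.68% called higher among the genes to which it gave an adjusted p. Without the 3 SI libraries numbered 3, 8, 7 and 7 members were called, beside 4.51%, 3.70% and 6.80% of all genes called higher.

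The calls of single members did not hold under all of the 15 alternatives run for each. *Defa24* kept its call at each level except in centre cells in a fit of only the groups compared (edgeR adjusted p = 0.171). *Itln1* kept its call in centre cells and lost it in that fit in border (0.0836) and row >3 cells (0.0633). *Mmp7* lost it in 2, 2 and 1 of the 15 in centre, border and row >3 cells, with edgeR adjusted p of 0.0614 without LI replicate 2 and 0.0624 without LI replicate 3 in centre cells and 0.107 in the fit of only the groups compared in row >3 cells. *Lyz1* lost it in 3, 5 and 2 of the 15, with a highest edgeR adjusted p of 0.160, 0.201 and 0.110. Those losses came in the fit of only the groups compared (centre and border), without LI replicate 2 or 3 at each level, and in border cells also without LI replicate 1 or SI replicate 1. *Defa22* lost it in 4, 6 and 3 of the 15, with a highest edgeR adjusted p of 0.240, 0.207 and 0.298. Its losses came without LI replicate 2 or 3 at each level, without LI replicate 1, SI replicate 1 or SI replicate 2 in border cells, in the fit of only the groups compared (centre and row >3) and in the older form of the edgeR test (centre and border).

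The number of calls depended on single libraries. In centre cells it was 2 without LI replicate 2 and 2 without LI replicate 3. In border cells it was 3 without LI replicate 1, 3 without LI replicate 2, 2 without LI replicate 3 and 3 without SI replicate 1, and in row >3 cells it was 3 without LI replicate 2 and 3 without LI replicate 3.

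The second comparison asks how the members differ between Lgr5+ levels of a site. In the SI no member was called between border and centre or between row >3 and centre cells, with or without replicate number as a block within the site. Without that block, none had an unadjusted p under 0.05 in edgeR or in DESeq2. At that unadjusted p stood 8.98% of all genes in edgeR and 8.31% in DESeq2 for border against centre, and 23.9% and 22.3% for row >3 against centre. Of all genes, 0.0112% were called between border and centre, and 7.35% were called higher and 5.82% lower in row >3 than in centre cells. For row >3 over centre the fitted log2 fold change was 1.15 ± 0.87 (SE) for *Mmp7*, -0.79 ± 1.14 for *Lyz1*, -0.60 ± 0.87 for *Defa24*, -0.25 ± 0.90 for *Itln1* and -0.55 ± 1.10 for *Ang4*. It was -0.97 ± 1.41 for *Defa21*, -1.0003 ± 1.114 for *Defa22*, -0.17 ± 1.08 for *Defa17*, -0.60 ± 1.16 for *Defa26* and -0.88 ± 1.42 for *Mptx2*. The edgeR adjusted p of the 10 members lay between 0.511 (*Mmp7*) and 1.0 (*Defa17*). The median over the members was -0.60, and the median size of the log2 fold change over all genes tested was 0.67 in either direction.

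For border over centre the estimates ran from -0.67 ± 1.41 for *Defa21* to 0.86 ± 0.87 for *Mmp7*, with 3 members above and 7 below 0 and a median of -0.31. The standard errors of 0.86 to 1.42 for these comparisons come from the fit of all 18 libraries without the replicate block. That fit draws the spread of a gene toward that of other genes, so they do not measure the SI replicates alone. A difference larger than its standard error was not enough for a call, as for *Mmp7* above.

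The SI replicates did not move alike, and each replicate number gave its own pattern for nearly all members. In replicate 1 every member was higher in row >3 than in centre cells, by 1.33-fold (*Defa26*) to 4.36-fold (*Mmp7*) with a median of 1.67. In replicate 2 the ratio of row >3 to centre lay between 0.384 (*Defa21*) and 1.82 (*Mmp7*) with a median of 0.581, and *Mmp7* was the one member above 1. In replicate 3 every member was lower in row >3 cells, with ratios from 0.0373 (*Mptx2*) to 0.446 (*Mmp7*) and a median of 0.122. The ratio of border to centre behaved alike, with medians of 1.90, 0.765 and 0.214 in replicates 1, 2 and 3. In each replicate number, *Mmp7* had the highest ratio of row >3 to centre of the 10 members. In the SI libraries numbered 3 the summed LI epithelial genes went from 19758 in centre to 60354 in border and 93092 in row >3. In the LI this sum was 23419 to 26113 in centre, 26834 to 36031 in border and 50544 to 61986 in row >3 libraries. SI replicate 3 thus exceeded the LI in border and row >3. The sum was also higher in row >3 than in centre in SI replicate 1 (14048 and 8123) and replicate 2 (11957 and 8152). The part of these genes in the members' values was not tested.

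**Figure D2:**
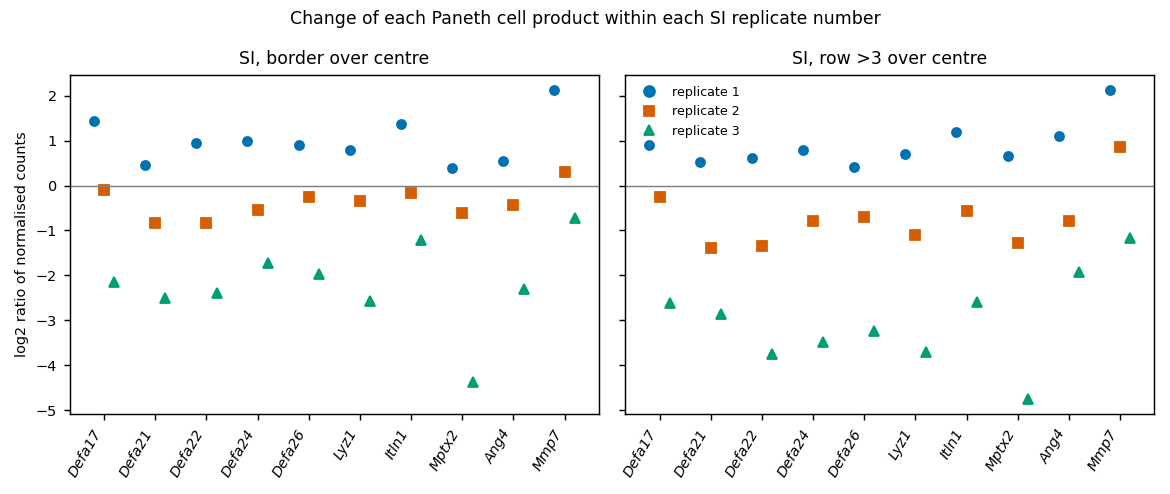
Log2 ratio of normalised counts of border (left) and row >3 (right) over centre SI cells for each member, 1 point for each replicate number, with the line at 0 for no difference. Points of replicate 1 lie above 0 and those of replicate 3 below 0 for all members, and *Mmp7* is the highest point of each replicate number in both panels.

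The spread over the 9 SI libraries was set largely by replicate 3. The highest over the lowest normalised count was 256-fold for *Mptx2*, 82.7-fold for *Defa22*, 52.5-fold for *Lyz1* and 12.2-fold for *Ang4*, the smallest. Over the 6 SI libraries of replicates 1 and 2 the same ratio lay between 4.28 (*Defa17*) and 5.97 (*Defa22*). SI centre replicate 2 held the highest value of every member except *Mmp7*, which was highest in SI row >3 replicate 2. The lowest value was in SI row >3 replicate 3 for every member except *Ang4*, which was lowest in SI border replicate 3.

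Without the 3 SI libraries numbered 3, *Mmp7* was called higher in row >3 than in centre cells, with a log2 fold change of 1.31 and an edgeR adjusted p of 0.0330, the smallest over its 16 alternatives, which ran up to 0.812. In that fit 9.97% of all genes were called higher. With replicate number as a blocking term among SI libraries, the log2 fold change of *Mmp7* was 0.79 (edgeR adjusted p = 0.307). It is higher in row >3 than in centre cells in replicates 1 and 2 and lower in replicate 3.

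Since all members vary together, their ratios to *Lyz1* within a library were compared. *Lyz1* was chosen as the denominator after the values were seen, and no other was tested. The ratio of *Mmp7* to *Lyz1* was 0.0660, 0.0441 and 0.0339 in SI centre, 0.166, 0.0690 and 0.121 in border and 0.178, 0.171 and 0.196 in row >3 libraries of replicates 1, 2 and 3. All row >3 values lay above all border values, and all border values above all centre values. This order depends on the denominator. Against *Itln1* border and centre overlap, since *Mmp7* had 237 counts beside 3372 in SI border replicate 3 and 923 beside 9736 in SI centre replicate 1. From centre to row >3 the ratio of *Mmp7* to *Lyz1* was 2.70-fold, 3.88-fold and 5.80-fold higher in the 3 replicates, with a mean of 3.93-fold. This holds also for replicate 3, in which both genes were lower. *Itln1* to *Lyz1* was 0.697, 0.722 and 0.671 in centre, 1.04, 0.815 and 1.73 in border and 0.983, 1.05 and 1.45 in row >3 libraries, a mean of 1.64-fold higher in row >3 than in centre. *Defa17* to *Lyz1* was also higher in each row >3 than in each centre library, by 1.64-fold in the mean, with the limit on its reads given above.

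**Figure D3:**
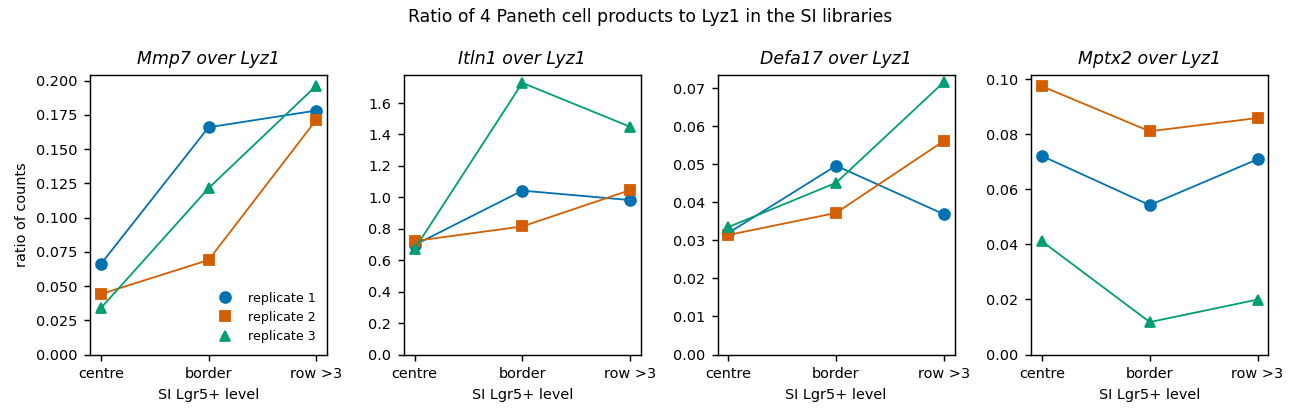
Ratio of the counts of *Mmp7*, *Itln1*, *Defa17* and *Mptx2* to those of *Lyz1* in the 9 SI libraries, by Lgr5+ level, with 1 line per replicate number. The ratio of *Mmp7* lies between 0.0339 and 0.0660 in centre and between 0.171 and 0.196 in row >3 libraries, and that of *Mptx2* is lowest in replicate 3.

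The ratio of *Mptx2* to *Lyz1* was 0.0721, 0.0975 and 0.0411 in centre, 0.0543, 0.0811 and 0.0118 in border and 0.0709, 0.0859 and 0.0200 in row >3 libraries, below centre in each replicate but with groups that overlap. *Ang4* to *Lyz1* was 0.0530, 0.0657 and 0.108 in centre and 0.0707, 0.0813 and 0.368 in row >3 libraries, with the highest value in replicate 3. For *Defa21*, *Defa22*, *Defa24* and *Defa26* the ratios of row >3 and centre libraries overlapped as well, and that of *Defa22* lay between 0.161 and 0.254 in all 9 libraries. In exact two-sided permutation tests of the log2 ratios, 3 libraries against 3, *Mmp7*, *Itln1* and *Defa17* reached p = 0.1 for both border and row >3 against centre and *Defa26* reached it for border, which is the smallest p this unpaired test allows. No ratio could therefore reach 0.05 in it, with or without the Benjamini-Hochberg adjustment over the 18 ratios (9 genes, border and row >3 against centre), which gave 0.257 for these 7. The tests are unpaired, whereas the folds given above are within replicate numbers, and the ratios are a description.

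In the LI no member was called between levels, and none had an unadjusted p under 0.05 in edgeR or DESeq2, beside 1.38% and 1.01% of all genes for border against centre and 6.96% and 6.73% for row >3 against centre. Of all genes, 0% were called between LI border and centre and 0.0187% between LI row >3 and centre cells. *Ang4* had a log2 fold change of 1.91 ± 1.40 (SE) for LI row >3 over centre (edgeR adjusted p = 0.924), from values of 0, 12.4 and 80.2 in centre and 89.3, 48.6 and 235 in row >3 libraries that overlap. The contrast of row >3 with centre cells did not pass the test of its difference between SI and LI for any member, with no unadjusted p under 0.05 in edgeR or DESeq2, beside 6.74% and 6.54% of all genes, and 0% of all genes were called. Since most members were at or near 0 in the LI, this difference could not be measured for them.

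Pearson's correlation of log2 CPM over the 9 SI libraries, which share the replicate structure above, lay between 0.975 and 0.995 for the 10 pairs of the 5 defensins, with a median of 0.986. Over all 45 pairs of members it lay between 0.791 (*Ang4* with *Mmp7*) and 0.997 (*Defa22* with *Lyz1*). The 9 pairs with *Mmp7* had a median of 0.882, against 0.978 over all pairs.

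By Pearson's correlation of log2 CPM with the mean of the members over the 9 SI libraries, the genes most like it included *Defa5* (r = 0.994), *Gm14851* (0.992), *AY761184* (0.992), *Fam46c* (0.979), *Defa3* (0.977), *Gm15284* (named *Defa30*, 0.975), *Defa-ps6* (0.973), *Whsc1l1* (named *Nsd3*, 0.973) and *Habp2* (0.969). *Fam46c* and *Whsc1l1* differ from the rest of these in the LI, with 1876 and 22844 counts over the LI libraries, whereas the other 7 named had at most 18.

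The table has 39 rows of alpha-defensin genes and pseudogenes, of which 9 had no count and 20 had at least 100 counts over all libraries. Summed over the 39 rows, SI libraries had 2452 to 139126 normalised counts and LI libraries 0 to 13.8, with 0 in 5 of 9. After *Defa24*, *Defa30* had the highest level, with 5740.3, 27008 and 7496 normalised counts in SI centre, 8318, 19518 and 1862 in border and 9202, 15778 and 362 in row >3 libraries. Of its windows 0.334% are shared with *Defa17* or *Defa3*. *Defa5* had 45.3 to 5145, *Defa34* 7.81 to 2849, *Defa2* 23.4 to 1360.2 and *Defa20* 14.05 to 1370.3 normalised counts over the SI libraries. All of these had their highest value in SI centre replicate 2 and their lowest in SI row >3 replicate 3. *Defa2* and *Defa20* share at least 99.7% of their windows with other defensin genes, *Defa5* 88.1% and *Defa34* 75.0%, so their separate counts are uncertain.

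**Figure D4:**
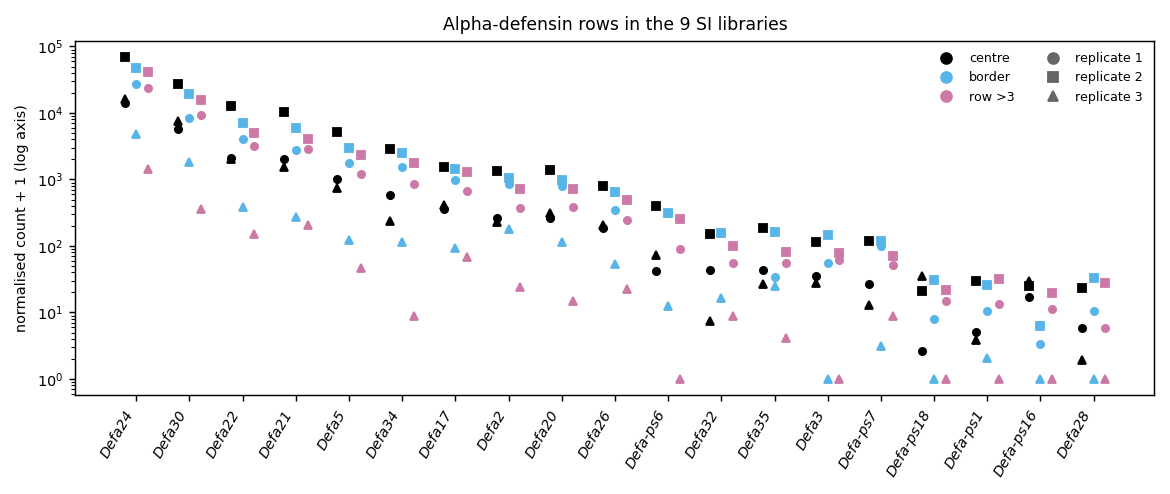
Normalised counts plus 1 (log axis) of 19 alpha-defensin rows with at least 100 counts, in the 9 SI libraries, coloured by Lgr5+ level, with 1 symbol per replicate number, in the order of their mean. *Defa24* and *Defa30* lead, and replicate 3 of border and row >3 cells holds the lowest points of nearly all rows.

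Of the list of other Paneth cell secretory genes, 19 were tested, and 4, 4 and 5 were called higher in SI centre, border and row >3 cells and none lower, beside 1.19%, 1.15% and 2.76% of all genes called higher. DESeq2 called 11 at each level, beside 4.40%, 4.62% and 7.68% of all genes, and edgeR called 8, 9 and 9 without the SI libraries numbered 3, beside 4.51%, 3.70% and 6.80%. With 1 library left out, the count in centre cells was 2 without LI replicate 1 and 1 without LI replicate 2 or 3. In border cells it was 1 without LI replicate 1 or 3 and 2 without LI replicate 2, and in row >3 cells it was 3 without LI replicate 2. *Habp2*, a secreted serine protease, was higher in the SI with log2 fold changes of 7.40 ± 1.18, 7.99 ± 1.20 and 7.63 ± 1.24 (SE, edgeR adjusted p = 0.000969, 0.000550 and 0.000489). Leaving out 1 library gave 6.80 to 8.41, 7.56 to 8.76 and 7.01 to 11.40 for *Habp2*. RNA of *Pla2g2a*, a phospholipase gene, was higher with 6.28 ± 1.27, 6.61 ± 1.19 and 6.89 ± 1.26 (adjusted p = 0.0136, 0.00711 and 0.00352). With 1 library left out its values ran from 5.54 to 6.76, 6.00 to 7.13 and 6.31 to 8.15. *Pnliprp2*, a lipase, and *Defa30* were also called at each level. The median log2 fold change of the list was 7.40, 7.99 and 7.63, beside 0 for all genes, but it contains fitted values of genes at 0 in the LI. None of the 19 was called between SI row >3 and centre cells by edgeR, with or without the SI libraries numbered 3, or by DESeq2.

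Of 18 genes that regulate Paneth cells or make up their niche signals, 1, 0 and 2 were called higher in SI than LI at centre, border and row >3, and none lower, beside 1.19%, 1.15% and 2.76% of all genes called higher and 0.805%, 0.606% and 1.32% lower. These counts rest on the SI libraries numbered 3, since without them 2, 4 and 5 were called higher and 8, 3 and 3 lower, beside 4.51%, 3.70% and 6.80% of all genes called higher and 6.39%, 4.40% and 5.36% lower. The lower ones included *Nod2*, a sensor of bacterial cell wall, at each level. DESeq2 on all libraries called 1, 3 and 3 higher and 0, 0 and 2 lower, beside 4.40%, 4.62% and 7.68% of all genes higher and 3.49%, 2.61% and 3.83% lower. In centre cells none was called without LI replicate 1, 2 or 3 or SI replicate 1 or 2, and 1 higher and 3 lower without SI replicate 3. In border cells 2 higher and 1 lower were called without SI replicate 3. In row >3 cells 1 was called without LI replicate 1, none without LI replicate 2 or 3 or SI replicate 1 or 2, and 3 higher and 1 lower without SI replicate 3. *Wnt3*, the Wnt ligand made by Paneth cells, had 241, 384 and 92.3 normalised counts in SI centre and 1.18, 27.0 and 31.1 in LI centre libraries, a log2 fold change of 3.41 ± 0.78 (SE, edgeR adjusted p = 0.0304). In row >3 cells *Dll1*, a Notch ligand, was higher in the SI by 0.96 ± 0.23 (adjusted p = 0.0171) and *Gfi1*, a transcription factor of secretory cells, by 1.45 ± 0.41 (adjusted p = 0.0464). From SI centre to row >3 cells 6 of these 18 were called higher and 2 lower, beside 7.35% and 5.82% of all genes. Those called higher were led by *Xbp1*, a regulator of the secretory pathway (1.65 ± 0.22, adjusted p = 7.35e-05), *Dll1* (1.72 ± 0.24, 7.42e-05), *Gfi1* (2.22 ± 0.43, 0.00130) and *Dll4* (1.11 ± 0.30, 0.0145). Leaving out 1 library gave 1.76 to 2.97 for *Gfi1* and 0.84 to 1.71 for *Dll4*. The 2 called lower were *Ephb3*, a receptor that places Paneth cells at the crypt base (-2.27 ± 0.26, adjusted p = 2.52e-05), and *Sox9*, a factor needed for Paneth cells (-1.02 ± 0.15, 0.000155). Without the SI libraries numbered 3, 10 were called higher and 3 lower (beside 9.97% and 7.09% of all genes), and without SI centre replicate 2, 3 higher and 2 lower.

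Of 24 other antimicrobial genes of the epithelium that were tested, 2, 1 and 6 were called higher in SI than LI at centre, border and row >3, beside 1.19%, 1.15% and 2.76% of all genes, and 6 higher in SI row >3 than centre cells, beside 7.35%, with none lower, beside 0.805%, 0.606%, 1.32% and 5.82%. That none was lower in SI than LI rests on the SI libraries numbered 3, without which 5, 5 and 7 were called higher and *Lgals3*, *Mptx1*, *Reg4* and *Retnlb* lower at each level, beside 4.51%, 3.70% and 6.80% of all genes higher and 6.39%, 4.40% and 5.36% lower. *Reg4*, a lectin of secretory cells, had 297 and 864 normalised counts in SI centre replicates 1 and 2 but 25348 in replicate 3, against 21050.2 to 49652 in LI centre libraries. DESeq2 on all libraries called 4, 6 and 7 higher, beside 4.40%, 4.62% and 7.68% of all genes. In centre cells the count was 1 without LI replicate 1 or SI replicate 1 or 2 and 0 without LI replicate 2 or 3. In border cells it was 0 without LI replicate 2 or 3 and 3 without SI replicate 3, and in row >3 cells it was 2 without LI replicate 2 or 3 and 3 without SI replicate 1. From SI centre to row >3 it was 3 without SI centre replicate 1 and 10 by DESeq2, beside 14.6% of all genes. *Reg3g*, a lectin that kills Gram-positive bacteria, was higher in the SI by 5.97 ± 1.01, 5.46 ± 0.96 and 7.95 ± 1.06 (SE, log2, edgeR adjusted p = 0.0103, 0.0139 and 0.00105). Its values with 1 library left out ran from 5.33 to 6.47, 4.92 to 5.89 and 7.11 to 8.41. From SI centre to row >3 cells *Lgals4* (1.60 ± 0.27, adjusted p = 0.000854), *Lypd8* (2.41 ± 0.45, 0.00310), *Pigr* (0.60 ± 0.13, 0.00401) and *Sprr2a3* (4.70 ± 1.16, 0.00744, and 3.75 to 6.01 with 1 library left out) rose. Whether these genes differ from the members in this contrast was not tested.

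Among markers of other cell types, from SI centre to row >3 cells, 7 of 10 goblet and deep secretory cell genes were called higher and 1, *Clca1*, lower, and 5 of 11 absorptive and 3 of 10 SI epithelial genes were called higher, beside 7.35% of all genes. Of 7 stem cell genes 5 were called lower, beside 5.82% of all genes. The goblet count was 4 higher without SI centre replicate 1, and the absorptive count was 2 without SI centre replicate 2 or SI row >3 replicate 1. Single genes of the enteroendocrine (1 of 7), tuft (1 of 6) and LI epithelial (1 of 11) lists were called higher, and leaving out 1 library gave 0 to 2, 0 to 6 and 0 to 2. The tuft count was 6 without SI centre replicate 3. Of 11 immune and 9 stromal genes edgeR called none. DESeq2 called 1 immune gene (*Cd79a*) lower and 2 stromal genes higher, beside 11.5% and 14.6% of all genes. Without the SI libraries numbered 3 the counts higher were 9 goblet, 6 absorptive, 5 SI epithelial, 3 enteroendocrine, 6 tuft, 4 LI epithelial, 1 immune and 2 stromal genes, beside 9.97% of all genes, with 7 stem cell genes, *Clca1* and *Cd79a* lower, beside 7.09%. The summed goblet list was 17238 to 224450 normalised counts in SI centre and 663766 to 1064400 in SI row >3 libraries, and the summed stem cell list was 55179 to 145159 and 9468 to 24914. Immune genes summed to 76.5 to 697 in SI and 143 to 404 in LI libraries. The part of these cell types in the members' values was not tested.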

How the data were processed

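RNA of at least 270 pg per sort was made into libraries with a stranded SMART-Seq kit and sequenced as read pairs of 100 bases. The authors trimmed adapters with Skewer, aligned to mm10 with STAR and deposited raw counts per gene for 43346 genes. The annotation release, the strand of counting and the treatment of reads with several origins are stated in neither the labels nor the study's methods. The second deposited table holds a signal, the raw counts divided by 1 size factor per library (relative deviation at most 5.33e-15). The labels name DESeq2 and bcl2fastq among the tools.

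Groups were taken from the labels. The 26717 genes with a mean count above 0 were tested in 1 fit of all 18 libraries with edgeR 4.0.16 (TMM, quasi-likelihood, Benjamini-Hochberg adjustment, threshold 0.05), in R 4.3.3. The fit was first run on simulated data. These held no shift common to a replicate number and no gene set to 0 in a group, so they cannot judge the fit under such conditions. Standard errors were derived as the size of the log2 fold change divided by the square root of the quasi-likelihood F. Alternatives were DESeq2 1.42.0, other scalings and filters, the replicate number as a block and leaving libraries out. Ratios and correlations were computed in Python 3.11.15.

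The members and gene lists were chosen with earlier results of these data known. Of the lists, the genes named are those with the smallest adjusted p among those called, at most 4 per direction. Further named genes are alpha-defensin rows with at least 100 counts, of which the more abundant are described, and the 10 genes nearest to the members' mean, with at least 1 CPM on average. A gene that these rules name is not reported here. Of 155 list symbols 149 were matched. The ratios to *Lyz1* were chosen after the values were seen. Depth was 8312093 to 31940965 counts per library.

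Deviations from the group means of libraries with the same number correlated by 0.189 to 0.619 within the SI and 0.243 to 0.532 within the LI, so the numbers pair the libraries of a site, and by -0.0469 to 0.151 between the sites at the same level. The labels tie no number to an animal, and libraries numbered 2 share their Y-linked counts in both sites, so whether the numbers pair the sites is not known.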

Additional observations from a re-analysis of the deposited data

How the results depend on the processing

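All 10 members kept their direction between SI and LI at each level under every alternative run. Of the 10 members, 5 were called higher in the SI at centre, border and row >3. DESeq2 called 10, 10 and 9, and a fit of only the groups compared called 2 and 2 in centre and border. A replicate block common to all libraries called 10, 8 and 9, and whether the numbers pair the sites is not known. Without all SI libraries numbered 3 it was 8 in centre, and 1 (*Mmp7*) between SI row >3 and centre. Leaving out 1 library gave 2 to 5 calls in centre, 2 to 7 in border and 3 to 7 in row >3. The cause of these shifts was not tested. In the comparisons between levels the count stayed at 0 under every other alternative, the replicate block within a site included.

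No log2 fold change between SI levels was called in the fit reported, and several changed sign. With the replicate block common to all libraries, border over centre was -0.30 for *Defa17* and -0.22 for *Itln1*, and with the replicate block within a site it was -0.15 and -0.21. Without the SI libraries numbered 3 it was 0.065 for *Defa26*, and row >3 over centre was 0.056 for *Defa17*. Leaving out 1 library, border over centre ran from -1.65 to 0.28 for *Ang4*, -0.62 to 1.08 for *Defa17*, -1.68 to 0.72 for *Defa21*, -1.38 to 0.86 for *Defa22*, -1.07 to 0.81 for *Defa24*, -1.13 to 0.82 for *Defa26*, -0.55 to 1.18 for *Itln1*, -1.20 to 0.75 for *Lyz1* and -2.01 to 1.08 for *Mptx2*. Row >3 over centre ran from -1.04 to 0.29 for *Ang4*, -1.0002 to 0.82 for *Defa17*, -1.57 to 0.42 for *Defa21*, -1.70 to 0.42 for *Defa22*, -1.38 to 0.54 for *Defa24*, -1.43 to 0.40 for *Defa26*, -0.83 to 0.84 for *Itln1*, -1.33 to 0.25 for *Lyz1* and -1.59 to 0.74 for *Mptx2*. Both signs are thus within reach of single libraries for these 9 genes, and not for *Mmp7*.

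The limits are few LI counts behind many SI to LI folds, the spread of the SI replicates and the reads shared among defensin genes.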
